A study of Mus musculus with 15 samples.

Results

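A set of 10 developmental regulators was followed across maps of 5-hydroxymethylcytosine (5hmC) and of unmodified CGs in mouse embryonic stem cells. The 10 genes, of 21755 protein-coding genes on chromosomes 1 to 19 and X, were chosen by name as regulators of endoderm and mesoderm whose promoters are known as bivalent: Gata4, Gata6, Sox17, Foxa2, Eomes, Gsc, Mixl1, Hand1, Tbx5 and Nkx2-5. Histone marks and RNA were not measured in these libraries, so that the bivalent state of these promoters could not be checked. All CGs within the gene and 5 kb on either side made up a locus, which held between 237 CGs (Mixl1) and 1308 CGs (Gata4). The promoter island was the CpG island that overlapped the 500 bp around the annotated transcription start with the most CGs. Its edge was the 1 kb on either side, and the gene body was the remainder of the gene outside islands. The start lay downstream of the 5′ end of the gene by 26421 bp in Gata4 and by 3444 bp in Nkx2-5. In Foxa2, Hand1, Eomes and Gata6 it did so by 1021, 671, 649 and 406 bp. A place upstream of the start can thus lie within the gene. As a comparison served genes with at least 30 CGs within 500 bp of the start. There were 13714 such CG-dense promoters outside the 10 genes, and 12250 of them had a promoter island. Of the 10 genes, 9 passed the CG minimum and 8 had a promoter island. Hand1, with 32 CGs, lay just inside that minimum and Tbx5, with 25 CGs, just outside it. Gata6 had 62 CGs but its nearest island of 1170 bp began 1590 bp downstream of the start, so that Gata6 and Tbx5 are described by the window around the start and by their gene bodies.

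In embryonic stem cells, genes of this kind are held in a poised state: their CpG islands carry the activating mark H3K4me3 together with H3K27me3, which is deposited by Polycomb complexes. CpG islands are as a rule unmethylated, whereas the CGs around them carry 5-methylcytosine. TET enzymes oxidize 5-methylcytosine to 5hmC, and they are known to bind CpG islands, among them those of Polycomb target genes, where 5hmC is found mainly at the margins. GATA4, GATA6, SOX17 and FOXA2 are transcription factors of the endoderm, EOMES, GSC and MIXL1 act in the primitive streak from which endoderm and mesoderm arise, and HAND1, TBX5 and NKX2-5 act in the formation of the heart.

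The DNA came from E14TG2a, a feeder-independent male line of mouse embryonic stem cells, grown on gelatin with serum and LIF. In hmTOP-seq, 5hmC was tagged with an azide-bearing glucose by the enzyme BGT and coupled to an oligonucleotide from which the sequencing read was primed, so that each read starts next to a hydroxymethylated CG. There were 2 technical replicates at 500, at 50 and at 5 ng of DNA, with 2 control libraries without BGT for each amount. In uTOP-seq, unmodified CGs were tagged through an engineered CG methyltransferase and read in the same way, in 3 replicates of 300 ng. All libraries are of a single untreated line, and p-values therefore measure the technical spread between libraries only.

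The 500-ng libraries held 31918445 to 32502791 reads, the 50-ng libraries 22052535 to 23027170, the 5-ng libraries 14884939 to 15277636 and the uTOP-seq libraries 20120568 to 28412885. Values are reads per CG of a region, scaled to 10000000 reads of the library, and are called the level below. This level is relative within a library, and it is not a share of modified molecules. The control libraries held 3409 to 10072 reads in all. Over the 5851 CGs of the 10 loci the controls of 500 ng held 4 and 3 reads, those of 50 ng 7 and 0 and those of 5 ng 0 and 0, where the labelled libraries held 8256 to 19134. The 7 reads all lay on 1 CG in the Eomes promoter island. A count of 0 allows up to 3 reads, and such limits cover counting error only.

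Reference sequences of 6 members show which CGs were read for 5hmC, in stretches of 240 bases. For genes with a promoter island the stretch is centred on the island boundary with the more 5hmC reads in its edge. For Tbx5 it is centred on the transcription start. CGs with a read in both 500-ng libraries are in capitals, all other bases in lower case, and each stretch is written 5′ to 3′ on the strand of its gene. The letters are those of the mm10 reference and not of E14TG2a, in which single CGs can differ. The stretches are Foxa2 (chr2:148043757-148043996, minus strand), Eomes (chr9:118479367-118479606, plus strand), Mixl1 (chr1:180697208-180697447, minus strand), Hand1 (chr11:57831615-57831854, minus strand), Nkx2-5 (chr17:26841005-26841244, minus strand) and Tbx5 (chr5:119832548-119832787, plus strand).
Foxa2: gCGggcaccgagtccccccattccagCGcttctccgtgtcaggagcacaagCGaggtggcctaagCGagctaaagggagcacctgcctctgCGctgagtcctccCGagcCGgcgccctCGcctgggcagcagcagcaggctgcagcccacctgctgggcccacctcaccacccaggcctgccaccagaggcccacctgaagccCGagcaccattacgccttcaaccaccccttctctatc
Eomes: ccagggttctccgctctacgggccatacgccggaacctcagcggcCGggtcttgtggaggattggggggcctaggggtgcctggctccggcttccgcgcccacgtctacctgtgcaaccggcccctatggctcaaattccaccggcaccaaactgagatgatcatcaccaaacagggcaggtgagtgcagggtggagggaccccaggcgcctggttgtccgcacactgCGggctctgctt
Mixl1: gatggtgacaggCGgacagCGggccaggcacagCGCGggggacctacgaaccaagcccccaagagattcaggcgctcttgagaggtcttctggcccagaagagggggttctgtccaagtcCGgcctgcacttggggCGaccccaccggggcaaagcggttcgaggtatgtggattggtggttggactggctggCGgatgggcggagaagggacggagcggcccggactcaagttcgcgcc
Hand1: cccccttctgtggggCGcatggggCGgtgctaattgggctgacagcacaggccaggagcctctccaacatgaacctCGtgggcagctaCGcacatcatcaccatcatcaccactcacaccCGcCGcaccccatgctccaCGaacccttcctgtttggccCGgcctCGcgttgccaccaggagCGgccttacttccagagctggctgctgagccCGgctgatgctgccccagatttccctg
Nkx2-5: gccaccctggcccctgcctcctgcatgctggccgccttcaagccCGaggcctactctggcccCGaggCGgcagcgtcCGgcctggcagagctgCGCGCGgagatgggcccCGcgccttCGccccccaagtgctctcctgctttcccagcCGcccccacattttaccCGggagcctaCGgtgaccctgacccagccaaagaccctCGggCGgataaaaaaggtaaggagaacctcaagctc
Tbx5: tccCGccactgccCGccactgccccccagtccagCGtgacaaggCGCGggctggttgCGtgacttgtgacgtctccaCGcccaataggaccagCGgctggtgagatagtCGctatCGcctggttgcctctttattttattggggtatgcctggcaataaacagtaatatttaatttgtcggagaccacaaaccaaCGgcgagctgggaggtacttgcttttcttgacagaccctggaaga
The island takes up the left 120 bases of the line in Foxa2, Eomes and Nkx2-5, shown at their downstream boundary, and the right 120 bases in Mixl1 and Hand1, shown at their upstream boundary. Inside the island, 1 of 11 CGs of Eomes, 3 of 12 of Mixl1, 8 of 11 of Foxa2, 9 of 12 of Nkx2-5 and 7 of 8 of Hand1 were read in both libraries. Outside it, the counts were 1 of 4, 4 of 6, 1 of 2, 5 of 5 and 4 of 4. In the stretches of Gata4, Sox17 and Gsc, which are not shown, 1 of 18, 1 of 7 and 5 of 9 CGs inside the island were read in both libraries. Outside the island these counts were 2 of 4, 2 of 2 and 2 of 2. Around the start of Tbx5, 11 of 14 CGs were marked.

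Promoter islands of these regulators held more 5hmC than most other CG-dense islands. In the 500-ng libraries the 8 islands had a median level of 0.444, against 0.0153 for the 12250 others. Around the start itself, in a window of 500 bp on either side, the median of all 10 genes was 0.285 against 0.0357 for 13714 other windows. Of the 10, 6 lay above the 75th percentile. Gsc (71.9th), Foxa2 (69.0th), Gata6 (61.5th) and Eomes (37.6th percentile) lay below it, and Eomes (0.0187) was also below the median. In the islands, the levels of 7 of the 8 lay above the 75th percentile of the others (0.0577), which by definition 25% of the others pass, and no island lay below the 25th percentile (0.00485). Eomes was the exception. Island level was not used to choose the genes, but the list was drawn up with earlier results of these data known, and no test was made over it.

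Of the endoderm regulators, the Sox17 island of 47 CGs held 103 and 101 reads at 500 ng, a level of 0.674 ± 0.000699 (SD, n = 2) at the 96.7th percentile. The Foxa2 island of 209 CGs, which at 3089 bp covers most of the gene, held 248 and 270 reads (0.385 ± 0.0280). The Gata4 island of 63 CGs held 66 and 53 reads (0.293 ± 0.0415). The percentiles of Foxa2 and Gata4 were 94.1 and 92.2, and in all 3 genes each library alone was above the 75th percentile of the others. The window around the start of Gata6, by contrast, held 8 and 18 reads over 62 CGs, a level of 0.0653 ± 0.0362 at the 61.5th percentile of such windows.

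Among the streak genes, the Gsc island of 189 CGs held 309 and 304 reads (0.503 ± 0.000651), at the 95.6th percentile. The Mixl1 island of 84 CGs held 56 and 28 reads (0.155 ± 0.0712), a wider relative spread than in any of the islands named so far. The Eomes island of 116 CGs held 16 and 4 reads (0.0266 ± 0.0224), at the 61.8th percentile. Only 1 of its 116 CGs had a read in both libraries. Eomes thus had the lowest island level of the 8, in both libraries.

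The heart regulators had the highest levels. The Hand1 island, of 25 CGs, held 210 and 232 reads (2.75 ± 0.228), at the 99.7th percentile, and 22 of its CGs were read in both libraries. This island of 327 bp begins 413 bp downstream of the start. The Nkx2-5 island of 34 CGs held 98 and 100 reads (0.904 ± 0.0245), at the 97.6th percentile. Tbx5, which had no promoter island, held 215 and 210 reads on the 25 CGs around its start, a level of 2.64 ± 0.0101 that 99.3% of the other CG-dense windows did not reach. For the less CG-rich window of Tbx5 the comparison with CG-dense windows is between unlike promoters. At 500 ng, Hand1, Tbx5 and Nkx2-5 did not overlap with the other members in this window, where Sox17 came next with 0.720 ± 0.0135. At 5 ng, Hand1 (0.966 and 0.614) overlapped with Sox17 (0.543 and 0.894), and Nkx2-5 lay below both genes.

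**Figure D1:**
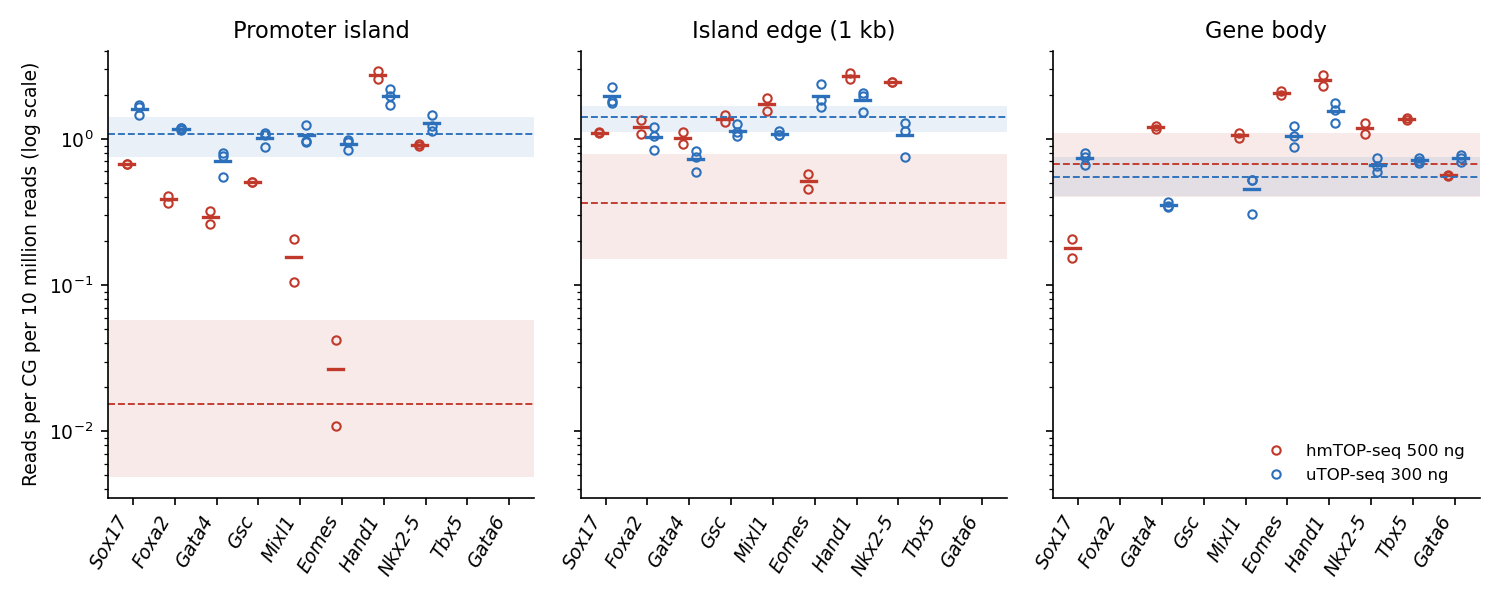
Reads per CG per 10000000 reads (log axis) in the promoter island, the 1-kb island edge and the gene body of each member, for 2 hmTOP-seq libraries at 500 ng and 3 uTOP-seq libraries at 300 ng. Open points are libraries, bars their mean, dashed lines the median of other CG-dense promoters and shaded bands their 25th to 75th percentile. In the island, 7 of the 8 hmTOP-seq means lie above the band and Eomes inside it. Members without a point had no CG in that compartment.

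Within the 2 longest islands, Foxa2 and Gsc, most 5hmC reads lay away from the start. In Gsc, the 75 island CGs within 500 bp of the start held 3 and 7 reads, a level of 0.0208, while the 114 CGs farther downstream held 306 and 297, a level of 0.821. In Foxa2 the 70 CGs near the start held 27 and 18 reads and the 139 others 221 and 252, so that the levels were 0.0996 and 0.529. The most covered island CG of Gsc, with 20 and 20 reads, was in a coding exon, 1703 bp from the start. Unmodified CGs were read in both parts: the uTOP-seq level of Gsc was 0.675 near the start and 1.23 beyond it. In the short island of Sox17 all CGs lay within 500 bp of the start, and the CG with the most reads (17 and 13) was 271 bp downstream of it, in a UTR.

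The other islands of the same loci differed widely. The largest was the island of 1972 bp in the body of Sox17, with 165 CGs and 42 and 21 reads, a level of 0.0591 against 0.674 at its promoter island. An island of 66 CGs lying 10412 to 10854 bp upstream of the Gata4 start, within the annotated gene, was nearly empty in hmTOP-seq, with 3 and 10 reads. Its uTOP-seq level was low as well, at 0.231 against 0.702 in the promoter island of Gata4. An island of 18 CGs between it and the start held 210 and 219 hmTOP-seq reads, a level of 3.70, and each of its 18 CGs was read in both libraries. Its uTOP-seq level was 1.01. The island 4819 to 5108 bp upstream of Hand1 (309 and 272 reads on 29 CGs, level 3.11) and that of 219 bp within Tbx5 (187 and 185 reads on 17 CGs, level 3.40) were of the same order. For Gata6, the island of 143 CGs downstream of the start had a level of 0.169 and the island of 29 CGs upstream of it a level of 1.04. High and low 5hmC thus occurred at islands of the same gene.

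At the edge of the island, the level rose in most of these genes. For the 8 genes the median level of the edge was 1.29, against 0.366 for the other promoters, and 7 of the 8 lay above the 75th percentile of the others (0.792). Nkx2-5 held 332 and 326 reads on 42 edge CGs (2.43), Hand1 420 and 379 on 46 (2.70), and Mixl1 174 and 138 on 28 (1.73). Gsc held 223 and 246 reads on 53 CGs (1.37), Foxa2 101 and 125 on 29 (1.21), Sox17 132 and 131 on 37 (1.10) and Gata4 169 and 139 on 47 (1.02). The Eomes edge, with 94 and 118 reads on 64 CGs (0.515), lay at the 61.3rd percentile. Only Eomes, then, was near the middle of the other promoters both inside and at the edge of the island.

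Edge and island were compared within each library by edgeR's quasi-likelihood test on the counts, with the number of CGs as offset. Across 11694 promoters the edge exceeded the island in 89.8%, and 90.8% were called in either direction at an adjusted p under 0.05. Among the 8 regulators, 7 were higher at the edge. The differences were large for Eomes (log2 4.27 ± 0.479 SE, adjusted p = 4.36e-13), where 16 and 4 island reads stood against 94 and 118 edge reads, and for Mixl1 (log2 3.51 ± 0.291, adjusted p = 6.04e-19). They were smaller for Gata4 (1.79 ± 0.263), Foxa2 (1.65 ± 0.190), Gsc (1.45 ± 0.151), Nkx2-5 (1.43 ± 0.176) and Sox17 (0.71 ± 0.240, adjusted p = 0.00487). In Hand1, with levels of 2.75 and 2.70, the difference was -0.03 ± 0.140 (adjusted p = 0.856). The median difference of the 8 genes was 1.55, while that of all promoters tested was 4.16. The share of the regulators called lies near the background share, and their median rise is below that of all promoters.

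**Figure D2:**
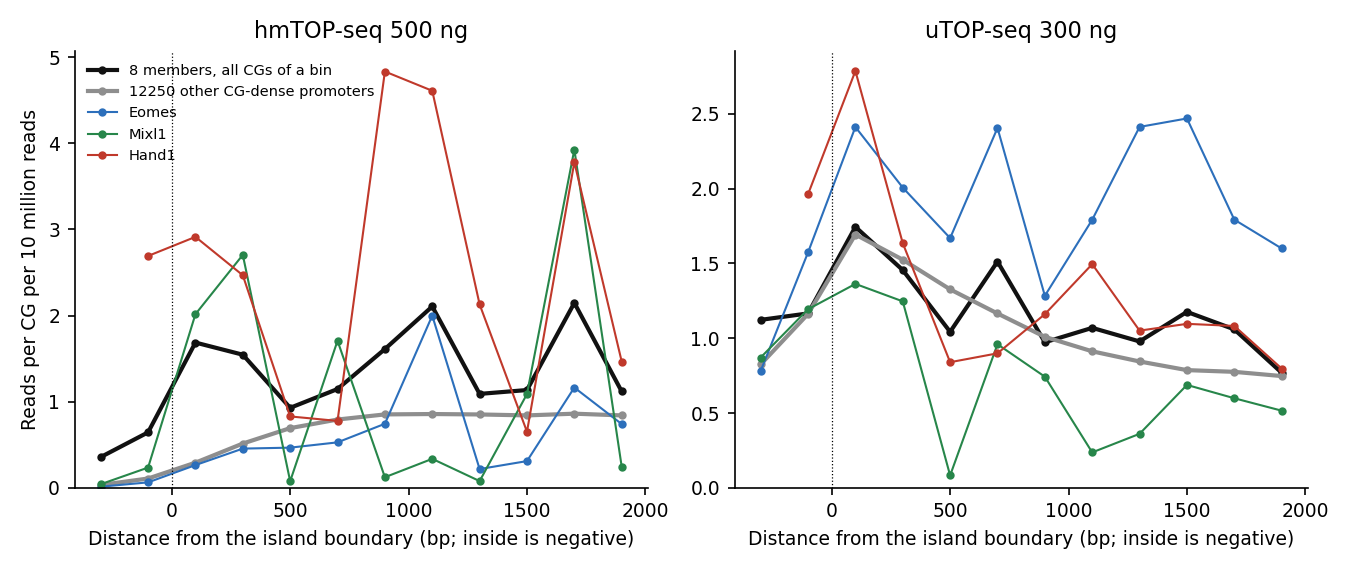
Reads per CG per 10000000 reads against the distance from the nearest boundary of the promoter island, in bins of 200 bp, for hmTOP-seq at 500 ng (left) and uTOP-seq at 300 ng (right). Lines show all CGs of the 8 members together, of the 12250 other CG-dense promoters, and of Eomes, Mixl1 and Hand1. In the 200 bp inside the boundary the hmTOP-seq level was 0.644 in the members and 0.108 in the others, and in the 200 bp outside it 1.69 and 0.292.

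Read by distance, the pooled CGs of the 8 genes had a level of 1.69 in the 200 bp outside the boundary and 2.11 between 1000 and 1200 bp, against 0.292 and 0.857 in other promoters. The genes differed in that nearest bin, from 0.264 in Eomes, 0.405 in Gata4 and 0.503 in Sox17 to 2.91 in Hand1. Inside the boundary the levels were 0.644 and 0.108 in the last 200 bp and 0.357 and 0.0335 in the 200 bp before. A bin of the members holds 38 to 287 CGs, so that single CGs weigh on it. In Hand1, an intronic CG 527 bp upstream of the start alone held 45 and 47 reads. In Nkx2-5 an intronic edge CG 802 bp upstream of the start held 58 and 46.

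Gene bodies were less set apart than islands. Their median level was 1.19 in the 8 genes with body CGs, against 0.677 for the other promoters, and 5 of the 8 lay above the 75th percentile (1.10). Hand1 held 427 and 353 reads on 48 CGs (2.52 ± 0.306) and Eomes 620 and 647 on 95 (2.07 ± 0.0890), at the 99.0th and 96.9th percentiles. In Eomes the order of the compartments was therefore steep: 0.0266 in the island, 0.515 at the edge and 2.07 in the body, where an intronic CG 3297 bp downstream of the start held 41 and 34 reads. Tbx5 held 3347 and 3187 reads on 742 CGs (1.37 ± 0.0298), and a CG in its intron 4824 bp downstream of the start, with 92 and 53 reads, was the most covered of all 10 loci. Gata4 held 3656 and 3413 reads on 914 CGs (1.20 ± 0.0430). Sox17 was at the other end, with 26 and 19 reads on 39 CGs (0.179 ± 0.0371, 6.47th percentile), and Gata6 lay at the 40.7th percentile (0.564 ± 0.00671). At 500 ng Sox17 was thus high at its promoter island and low in its body, while Eomes was high in its body and at the 61.8th percentile in its island. At 5 ng the Sox17 body lay at the 55.0th percentile (0.726 ± 0.540). Foxa2 and Gsc had no body CG outside island and edge.

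Unmodified CGs, read by uTOP-seq, did not set the islands of these genes apart. The median uTOP-seq level of the 8 islands was 1.11, close to 1.07 for the other promoters, and 2 of the 8 lay above the 75th and 1 below the 25th percentile of the others. Hand1 was highest with 140, 99 and 110 reads (1.96 ± 0.236, SD, n = 3), and Gata4 lowest with 136, 80 and 101 (0.702 ± 0.133). The edges, with a median of 1.11 against 1.40 for the other promoters, were split. Of the 8, 4 lay below the 25th percentile of 1.11, namely Gata4, Foxa2, Mixl1 and Nkx2-5. Above the 75th percentile of 1.69 lay 3, namely Sox17, Eomes and Hand1. Hand1 ranked high for unmodified CGs as well as for 5hmC, with uTOP-seq percentiles of 96.0 in the island, 85.6 at the edge and 98.0 in the body.

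**Figure D3:**
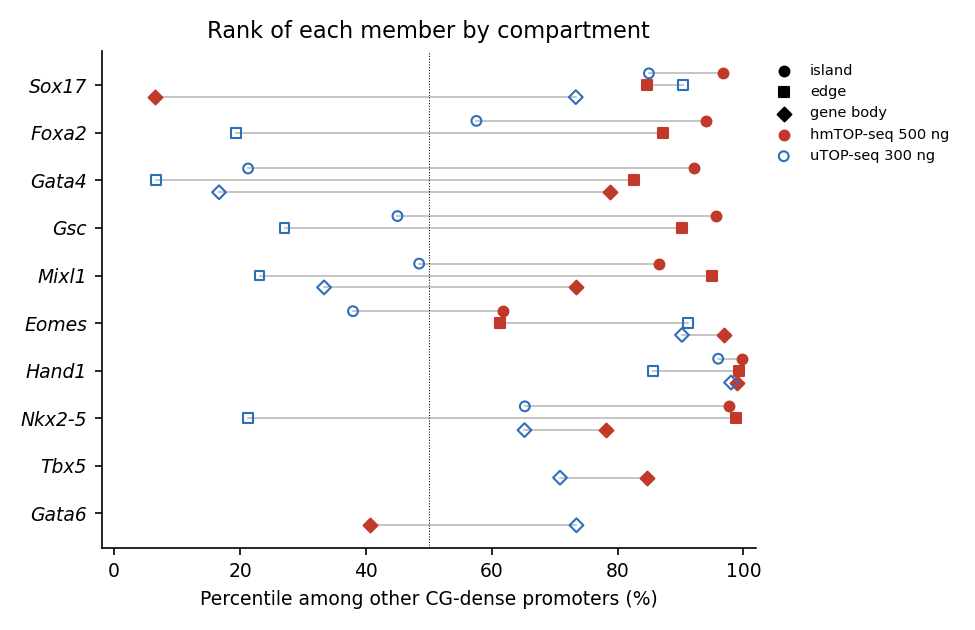
Percentile of each member among other CG-dense promoters for the level in the island (circles), the edge (squares) and the gene body (diamonds), in hmTOP-seq at 500 ng (filled) and uTOP-seq at 300 ng (open). The hmTOP-seq rank is above the uTOP-seq rank in all 8 islands, and below it at the edges of Sox17 and Eomes and in the bodies of Sox17 and Gata6.

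The balance of both readouts at the island was tested across 12144 promoter islands, with counts of 2 hmTOP-seq and 3 uTOP-seq libraries after TMM scaling, so that a difference is relative to the other islands. With this scaling 72.7% of islands differed and 25.6% were higher in hmTOP-seq. Of the 8 regulators, 7 were higher in hmTOP-seq, and with all libraries none was lower. The log2 difference was 5.41 ± 0.146 (SE) for Hand1 (adjusted p = 2.88e-41), 4.43 ± 0.198 for Nkx2-5, 3.91 ± 0.110 for Gsc, 3.66 ± 0.178 for Sox17, 3.65 ± 0.243 for Gata4, 3.31 ± 0.112 for Foxa2 and 2.14 ± 0.251 for Mixl1 (adjusted p = 4.34e-11). Eomes, at -0.19 ± 0.379, was not called (adjusted p = 0.653), but without the 500-ng library of replicate 1 its difference was -1.46. With 1 library left at 500 ng, no call is given for that fit. The median of the 8 was 3.66 and that of all islands -1.11. The direction depends on the scaling: with library size alone the median of all islands was -5.96, 141 of 11999 called islands were higher, and of the regulators Hand1 was higher and 7 were lower. Their place above the median island was kept, with a median of -1.26.

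The rise from island to edge was also measured in uTOP-seq, where 63.4% of 12181 promoters differed between edge and island and 50.4% were higher at the edge, but of the 8 regulators 1 was called, Eomes (log2 1.08 ± 0.120, adjusted p = 2.05e-18). Eomes held 324, 253 and 195 uTOP-seq reads in its 116 island CGs and 337, 353 and 213 in its 64 edge CGs. The other 7 ranged from -0.30 ± 0.180 in Nkx2-5 to 0.27 ± 0.144 in Sox17. The difference between the assays was tested as the ratio of edge to island in hmTOP-seq over that in uTOP-seq, and 91.6% of 12192 promoters were called, 91.1% with the larger ratio in hmTOP-seq. Of the regulators, 6 were called in that direction, from Gsc (1.27 ± 0.197) to Mixl1 (3.46 ± 0.300), while Sox17 (0.44 ± 0.259, adjusted p = 0.0972) and Hand1 (0.07 ± 0.220, adjusted p = 0.762) were not. That share is below the background share, and the median of the 8 genes was 1.73 against 3.62 for all promoters.

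Gata4 lies in a stretch of chromosome 14 where uTOP-seq was low. Its whole locus had a hmTOP-seq level of 1.07 and a uTOP-seq level of 0.408, above 86.5% and above 10.1% of other CG-dense genes. Among 93 genes within 5 Mb the median uTOP-seq level of the loci was 0.290, against 0.617 for all genes, while the median hmTOP-seq level was 0.527, against 0.486. The ratio of both had a median of 1.76 among these neighbours, 0.815 over all genes and 0.696 to 1.06 around the other 9 regulators. Of these neighbours, 84.9% had a lower uTOP-seq level than Gata4. The part of this stretch in the uTOP-seq levels of Gata4 and in its difference of 3.65 was not tested.

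**Figure D4:**
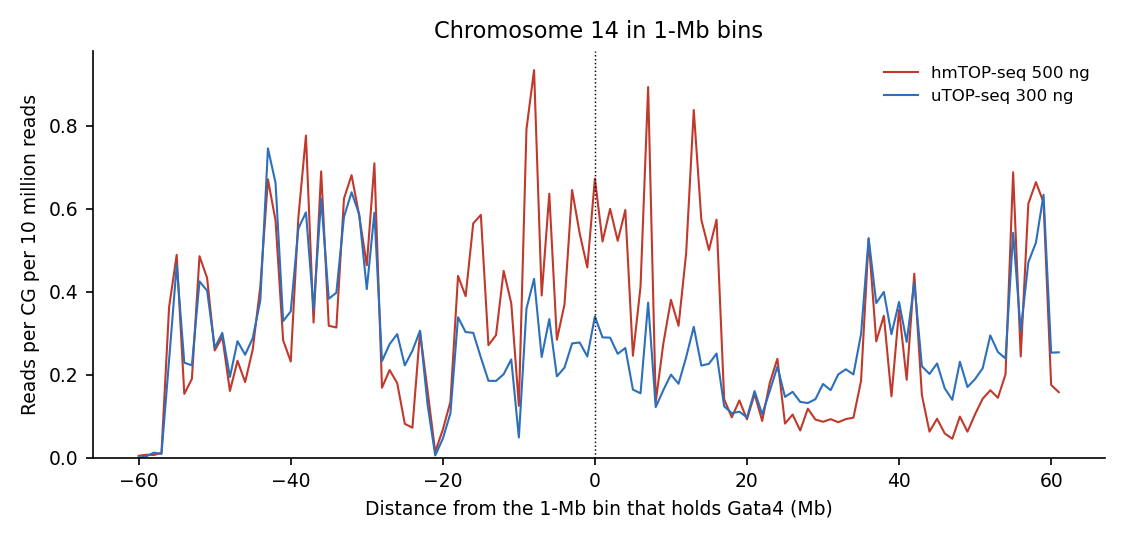
Reads per CG per 10000000 reads over chromosome 14 in bins of 1 Mb, against the distance from the bin that holds Gata4, for hmTOP-seq at 500 ng and uTOP-seq at 300 ng. From 16 Mb below to 16 Mb above the Gata4 bin the hmTOP-seq line is above the uTOP-seq line in every bin, and in stretches farther out, such as 44 to 53 Mb above it, the hmTOP-seq line is below.

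Over the whole locus, Hand1 was highest in hmTOP-seq (2.05 ± 0.0603, 99.8th percentile) and also highest of the 10 in uTOP-seq (1.48 ± 0.117, n = 3). Tbx5 (1.48 ± 0.0403) and Nkx2-5 (1.28 ± 0.0124) followed, and then Gata4 (1.07 ± 0.0248), Gsc (0.802 ± 0.00701) and Eomes (0.703 ± 0.0243). Below them came Foxa2 (0.610 ± 0.0520), Gata6 (0.551 ± 0.00304) and Mixl1 (0.535 ± 0.0543), and the libraries of Mixl1 overlapped with those of both Foxa2 and Gata6. Sox17 (0.314 ± 0.0145) was lowest. Other neighbours in this order did not overlap.

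No member was called different at the lower amounts of DNA by edgeR. At 50 ng the log2 difference from 500 ng ranged from -0.24 ± 0.061 (Hand1) to 0.22 ± 0.095 (Foxa2), and at 5 ng from -0.31 ± 0.176 (Hand1) to 0.48 ± 0.233 (Mixl1). Against this stand all loci, where 1 of 20527 loci (0.00487%) and 0 of 20325 loci (0%) were called at the 2 amounts by edgeR. An unadjusted p under 0.05 was reached by 2428 and 2380 loci. DESeq2 gave an adjusted p for 5006 and 19931 loci and called 154 and 1128 of them. Among those called was 1 member, Hand1 at 50 ng (log2 -0.24 ± 0.070, adjusted p = 0.0277). These counts depend on the low-input pairs. With a single 50-ng or 5-ng library left, the 500-ng pair alone gave the spread, so that no calls are given for such fits. The median log2 difference of the 10 genes was then -0.0351 and -0.115 at 50 ng, and -0.00447 and 0.0335 at 5 ng. In that case the lone library is taken to vary like the 500-ng pair.

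**Figure D5:**
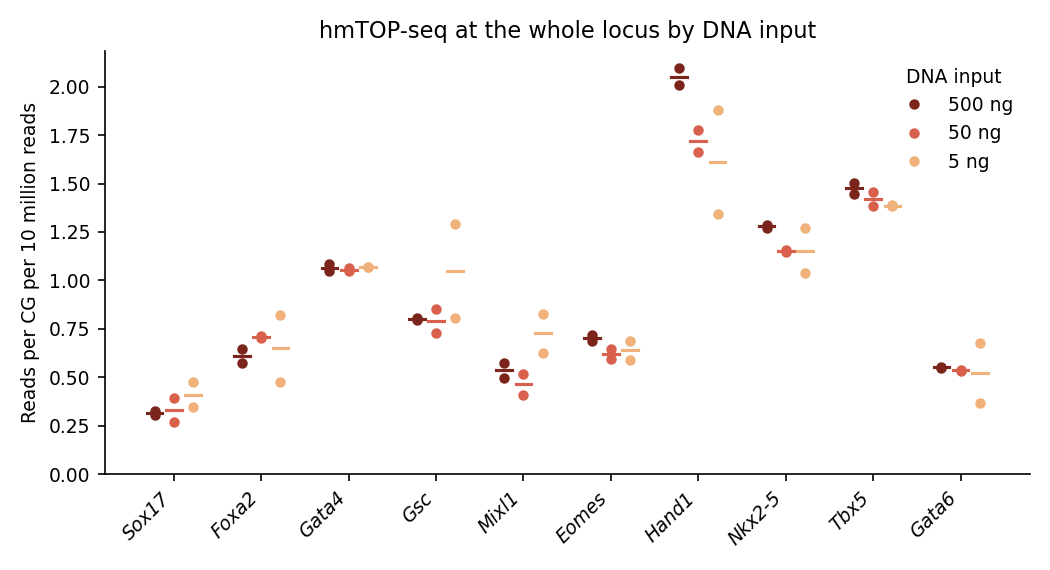
Reads per CG per 10000000 reads over the whole locus of each member at 500, 50 and 5 ng of DNA. Points are libraries and bars the mean of 2. At Hand1 and Gsc the 5-ng libraries lie farthest apart, and Hand1 has the highest mean at each amount.

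What changed with the amount was how many CGs carried the reads. The 500-ng libraries held 2709 and 2552 reads at Hand1, the 50-ng libraries 1626 and 1460 and the 5-ng libraries 1114 and 816, and on average 78.9%, 56.7% and 23.1% of its 398 CGs had a read. In the Eomes island 0 and 3 reads were left at 50 ng, and 0 and 0 at 5 ng, where 0 allows up to 3. A 50-ng control held 7 reads there on 1 CG, and the other held 0. That control had 3409 reads in all, so that its count sets no background level for the labelled libraries. At 5 ng, too, 7 of 8 islands and 7 of 8 edges lay above the 75th percentile of the other promoters. For islands that percentile was 0.0382 and the median 0, and the values of several members rest on few CGs. Gata4 had 17 and 11 reads on 1 of 63 island CGs in each library, and Sox17 29 and 15 on 2 of 47. Hand1, with 70 and 40 reads, had them on 11 and 8 of 25. In the Nkx2-5 island, however, the 500-ng level of 0.904 ± 0.0245 stood against 1.03 ± 0.642 at 50 ng and 0.205 ± 0.0176 at 5 ng.

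Other regulators of endoderm and mesoderm were described in the same way. Of 45 genes, 36 had a CG-dense promoter with an island. Their islands had a median hmTOP-seq level of 0.125, below the 0.444 of the 8 regulators and above the 0.0153 of the other promoters, and 26 of 36 lay above the 75th percentile. Pdx1, a regulator of the pancreas, was highest (1.10) and Nodal, a signal of the early embryo, lowest (0.0126). At the edge the median of this list was 0.902, against 1.29 for the 8 regulators, and 23 of 36 lay above the 75th percentile. In the gene body it was 1.41, above the 1.19 of the members, and 19 of 33 lay above the 75th percentile. Relative to uTOP-seq, 28 of the 36 islands were called higher in hmTOP-seq and 2 lower. Of all 12144 islands tested, 3103 (25.6%) were called higher and 5731 lower. From island to edge 33 of the 36 rose and 1 fell in hmTOP-seq, near the background share of 89.8% of 11694 promoters that rose. At 24 of 25 housekeeping genes with such an island the median level was 0.00427, and 1 of 24 (Gusb, 0.123) lay above the 75th percentile and 14 below the 25th. Of 23 housekeeping islands tested, 1 was higher in hmTOP-seq and 22 were lower, beside the same 3103 and 5731 of all 12144 islands. Median uTOP-seq levels of the islands were 0.999 for the other regulators and 1.32 for the housekeeping genes.

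The 5 genes most like the regulators were Gas6, Arhgef3, Fam234b, Mfsd4b1 and Adora1, by Euclidean distance to the median of the members over 6 values, the log2 levels in island, edge and body of both assays, among 11916 genes. Gas6 was nearest (distance 0.210), with hmTOP-seq levels of 0.440 in the island, 1.39 at the edge and 1.08 in the body. None of these 5 was on the lists above.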

How the data were processed

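The deposited files hold read counts per CG and library, with no normalization. According to the methods, the authors mapped reads to mm10, removed duplicates and assigned reads to CGs. All 15 libraries were grouped by assay and DNA amount from the labels. The members and gene lists were chosen with earlier results of these data known, and the named genes are all 10 members, 2 lists of other genes and the 5 genes most like the members.

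Genes came from GENCODE M21 and sequence from the GRCm38 reference, on whose CGs all positions lay. CpG islands were called in the sequence by GC share (0.5 or more), ratio of observed to expected CGs (0.6 or more) and length (200 bp or more), and 16114 were found. Levels are reads per CG per 10000000 reads, and likeness used a pseudocount of 0.1. Tests used edgeR quasi-likelihood (edgeR 4.0.16) with Benjamini-Hochberg adjustment over all loci or promoters tested, and DESeq2 1.42.0 as an alternative. Tests between DNA amounts covered all genes, and tests of islands and edges the CG-dense promoters with an island. TMM scaling and filterByExpr were used between DNA amounts and between assays at the islands. Edge and island were compared at promoters with at least 10 reads in both together, with the library as a term. There, library size and the number of CGs were the offset. The scripts were tested on simulated counts. Intervals of DNA molecules cannot be given, as reads carry no molecular identifiers. Sequence of chromosome 18 is not reported here.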

Additional observations from a re-analysis of the deposited data

How the results depend on the processing

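The median hmTOP-seq level of the 8 islands was 0.397 in the 50-ng and 0.215 in the 5-ng libraries, and that of the fixed windows of all 10 genes was 0.285, against 0.0357 for other windows. In the fixed window Eomes was called lower in hmTOP-seq than in uTOP-seq (-1.27). The median edge level was 1.12 with the fixed window, 1.72 with an edge of 500 bp and 1.45 at 50 ng, and the median uTOP-seq island level was 0.981 in the fixed window. With library size in place of TMM, the difference of hmTOP-seq from uTOP-seq turned to -1.26 in Gata4, -1.26 in Sox17, -1.61 in Foxa2, -1.01 in Gsc, -2.77 in Mixl1 and -0.49 in Nkx2-5. With the 5′ end of the gene as start, the edge of Nkx2-5 was lower than its island (-0.97), and with an edge of 2 kb Sox17 was no longer called in hmTOP-seq (0.31) and the uTOP-seq edge of Mixl1 was lower (-0.50). In uTOP-seq 3 of 8 members were called between edge and island with an edge of 500 bp (7904 of 12175 promoters), 5 of 8 with 2 kb (7966 of 12186) and 2 of 6 with the 5′ end (7069 of 11210). The causes were not tested.

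At 50 ng, DESeq2 called 154 of the 5006 loci with an adjusted p, and 1 member (Hand1). At 5 ng it called 1128 of 19931 such loci and no member. The correlation of deviations between libraries of the same number was 0.0184, -0.0245 and -0.00789, so that the numbers do not pair the libraries, and with a replicate block 108 and 15 loci were called and 6438 islands between the assays. Leaving out single libraries gave 1 to 2879 loci and 0 to 2 members at 50 ng, and 1 to 11810 loci and 0 to 6 members at 5 ng. Over these, the 5-ng difference ranged from -0.55 to 0.33 in Gata6 and from -0.32 to 0.47 in Foxa2. Edge against island in hmTOP-seq has no test with 1 library left. The Eomes island held 16 and 4 reads at 500 ng.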

Other observations

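Gata4 lay in the longest autosomal stretch of 1-Mb bins whose ratio of hmTOP-seq to uTOP-seq levels was above 1.5 times the median bin. In 2410 bins of 1 Mb with at least 1000 CGs, the median ratio of hmTOP-seq to uTOP-seq levels was 0.858, and 164 bins were above 1.5 times that value. The longest runs of such bins were 24 bins from 47 to 71 Mb and 8 bins from 72 to 80 Mb of chromosome 14, with median ratios of 1.96 and 2.12, and the next longest had 7 bins. Over the 307186 CGs of both runs the uTOP-seq level was 0.260, 0.257 and 0.258 in the 3 libraries, against 0.331, 0.332 and 0.321 on the rest of the chromosome. In the 6 hmTOP-seq libraries of all amounts it was 0.535 to 0.548, against 0.312 to 0.328. The stretch was found after the values of Gata4 were seen, its part in the values of Gata4 was not tested, and the other 9 regulators lay outside it.

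The 3 CpG islands upstream of the Gata4 promoter island, all within the annotated gene, had unlike hmTOP-seq levels at 500 ng. These were 2.85 on 24 CGs, 3.70 on 18 CGs and 0.0307 on 66 CGs, in order of distance from the start. Their uTOP-seq levels were 0.964, 1.01 and 0.231 in the same order, so that the last island was low in both assays.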
